A study of Gallus gallus with 12 samples.

Results

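The comparison described here sets every electroporated, GFP-positive (GFP+) library of the series against every unlabelled, GFP-negative (GFP−) library, and asks which microRNA hairpins differ in the same way whatever construct the cells received. All 12 libraries of the series enter it, 6 GFP+ and 6 GFP−. They were chosen by the GFP label alone, with no measured value. The readout is the chicken-aligned table, which lists 850 distinct hairpins. Of these, 718 had a mean over all libraries below 10 normalized reads and were not tested, and the others, called the tested hairpins, are the base of every count below.

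Chicken (Gallus gallus) embryos at Hamburger-Hamilton stages HH4-5, the time of gastrulation, had been electroporated with a vector that expresses GFP together with a construct aimed at miR-302, and their cells were sorted by GFP. One arm carries the label of a miR-302 knockdown (KD, although the protocol names a deletion of the chick gene), and the other is labelled as overexpression (OE) of human miR-302. Each arm had 3 GFP+ and 3 GFP− libraries, with replicates numbered 1 to 3. No group analysed here is labelled as having the GFP vector with a neutral construct, so the GFP+ cells of both arms share electroporation, GFP and a construct. These cannot be told apart in a difference that both arms show. GFP− cells are the unlabelled cells of the sorts, and the labels give them the construct name of their arm. Nothing in the labels says that the numbered libraries came from separate embryos or how many embryos were pooled. A p-value here sets a difference against the spread of these samples, part of which may be technical. In such bulk samples, fewer cells of a type and less of a microRNA per cell cannot be told apart.

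MicroRNAs are short RNAs, cut from hairpin precursors, that lower the translation and stability of messenger RNAs with matching sites. The miR-302/miR-367 family is characteristic of pluripotent and early embryonic cells, whereas let-7 family members are held low in such cells by LIN28 and accumulate as cells differentiate. Other hairpins mark particular tissues, such as miR-122 in liver, miR-375 in pancreatic islets, miR-1 in muscle and miR-126 in endothelium.

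Depth moved with GFP. The GFP+ library was shallower than the GFP− library of the same number in 6 of 6 pairs, by 3.38 to 6.61 times in the KD arm and by 1.96 to 155.2 times in the OE arm. Hairpins held 49276 to 82211 reads in the KD GFP+ libraries and 277633 to 435716 in the KD GFP− libraries. The OE GFP+ libraries held 3856, 1292 and 1789 reads, and the OE GFP− libraries 7546, 52653 and 277637. Of the tested hairpins, 42 had no read in OE GFP+ replicate 2, where 1 read is worth 24.4 normalized reads. The low values of the OE arm therefore carry a large counting error, and the part of depth in the results below was not tested.

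The targeted family was read first. The 4 miR-302 hairpins and miR-367 made up 41.9%, 30.4% and 39.3% of all hairpin values in the KD GFP+ libraries, against 48.1%, 40.7% and 45.4% in the KD GFP− libraries. In the OE arm they made up 15.6%, 26.9% and 17.6% in GFP+ cells and 21.005%, 41.6% and 25.3% in GFP− cells. The share was lower in the GFP+ library of all 6 pairs, and the groups overlapped in both arms. The GFP+ libraries labelled OE were thus not above their GFP− partners at the chick hairpins. The alignment counts reads assigned to chick hairpins, and the sources used here do not say where reads from a human miR-302 construct went. The arm labels are used below only as a covariate and as names.

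Across both arms, electroporated cells had more let-7 and miR-122 and less of a group of hairpins that includes miR-1a, miR-126, miR-218, miR-222a and miR-363. A single GFP effect was fitted to all 12 libraries with limma on log2(normalized reads + 1), with arm as a covariate, and p-values were adjusted by Benjamini-Hochberg over all tested hairpins. At an adjusted p under 0.05 by limma, 39 hairpins were called, which is 29.5% of those tested. Of these, 20 rose (15.2%) by 1.73 to 4.91 on the log2 scale and 19 fell (14.4%), with log2 differences of -3.15 to -0.48. All 39 had the same sign in both arms, but a call on the effect shared by the arms favours such signs. The division into rises and falls depended on scaling, pseudocount and test. The median log2 difference of all tested hairpins was -0.46 on the deposited scale and -0.18 there with a pseudocount of 25. It was -0.38 after TMM scaling and -0.09 in edgeR on the recovered reads, which also used TMM factors. With TMM scaling, 19 rose and 10 fell, and in edgeR 22 rose and 11 fell. In DESeq2 24 rose and 28 fell, and with a pseudocount of 25 in limma 19 rose and 29 fell.

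**Figure D1:**
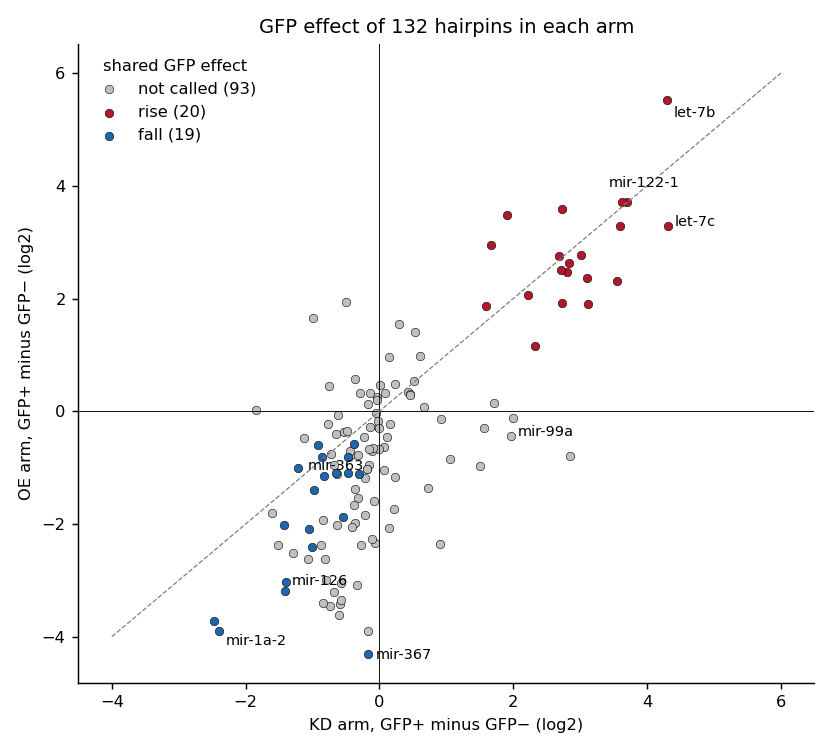
GFP+ minus GFP− difference (log2) of each tested hairpin in the KD arm (horizontal axis) and in the OE arm (vertical axis), coloured by the call of the shared GFP effect. The 20 rises sit in the upper right and the 19 falls in the lower left, and many uncalled hairpins lie low on the OE axis, where the median is -0.67, with values near 0 on the KD axis, where it is -0.17.

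The largest rises were in let-7. Of the 13 let-7 hairpins in the table, 11 had reads, 10 were tested, 9 rose and none fell, and the median log2 difference of the 10 was 2.67 against -0.46 for all tested hairpins. gga-let-7l-1 and gga-let-7l-2 had no read in any library. gga-let-7b was at 379, 418 and 487 normalized reads in the KD GFP+ libraries and at 43.9, 17.8 and 11.2 in the KD GFP− libraries. It was at 207, 219.4 and 206.2 in the OE GFP+ libraries and at 0, 13.1 and 6.003 in the OE GFP− libraries. Every GFP+ library lay above every GFP− library, and the value of 0 is from a library where 3 reads are worth 11.7 normalized reads. The log2 difference of gga-let-7b was 4.91 (SE 0.59, limma adjusted p = 4.79e-05).

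gga-let-7c, whose mature product belongs to the same family, was at 416, 557 and 666 normalized reads in KD GFP+ cells and 48.5, 22.996 and 15.9 in KD GFP− cells. The OE libraries held 147.04, 97.5 and 238 in GFP+ cells and 15.6, 22.9 and 8.29 in GFP− cells. The groups again did not overlap in either arm, and gga-let-7c rose by 3.80 on the log2 scale (SE 0.38, limma adjusted p = 1.99e-05). The 7 other let-7 rises were gga-let-7j, the 3 let-7a copies, gga-let-7g, gga-let-7f and gga-let-7k. Their log2 differences ran from 1.73 for gga-let-7k (limma adjusted p = 0.00324) to 2.89 for gga-let-7j (limma adjusted p = 2.2e-05). In each of these 9 hairpins the GFP+ libraries lay above the GFP− libraries in both arms. For gga-let-7g the OE gap was narrow, since OE GFP+ replicate 2 was at 24.4 from 1 read and OE GFP− replicate 2 at 23.8. The 3 let-7a hairpins yield the same mature sequence, and the sources used here do not say how shared reads were divided among them.

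gga-let-7i was the tested let-7 hairpin that was not called. Its log2 difference was 2.85 in the KD arm and -0.79 in the OE arm, and 1.03 for both (SE 0.90, limma adjusted p = 0.405). Only 10 of the 12 libraries held a read of it. In edgeR on the recovered reads all 10 tested let-7 hairpins were called as rises.

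Liver miR-122 rose with let-7. gga-mir-122-1 was at 2121, 2701 and 2732 normalized reads in KD GFP+ cells and at 420.2, 182 and 108 in KD GFP− cells. Its OE levels were 789, 731 and 1824 in GFP+ cells and 50.8, 106.5 and 81.8 in GFP− cells. All 6 GFP+ libraries lay above all 6 GFP− libraries, and gga-mir-122-1 rose by 3.67 on the log2 scale (SE 0.34, limma adjusted p = 1.32e-05). The second copy, gga-mir-122-2, rose by 3.71 (SE 0.42, limma adjusted p = 3.2e-05); both copies may share reads.

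gga-mir-375, known from pancreatic islet cells, was far scarcer. It was at 31.2, 16.2 and 50.2 normalized reads in KD GFP+ cells and at 4.83, 4.57 and 1.998 in KD GFP− cells. OE GFP+ cells had 20.1, 97.5 and 15.9, and OE GFP− cells 7.81, 4.91 and 11.6. The groups did not overlap within either arm, although the value in OE GFP+ replicate 3 is 1 read, and the log2 difference was 2.32 (SE 0.55, limma adjusted p = 0.00767). Its GFP− group means, 3.80 (KD) and 8.10 (OE), were below 10, so gga-mir-375 passed the filter through its GFP+ values. These 3 hairpins were all the tested members of the endoderm and liver list, which has 8 hairpins in the table. Its summed level ran from 975 to 3272 normalized reads in the GFP+ libraries and from 66.4 to 496 in the GFP− libraries. That sum is mostly miR-122, which alone ran from 853 to 3196 in the GFP+ libraries and from 54.7 to 487 in the GFP− libraries. Of its other members, gga-mir-194 and gga-mir-215 were under the filter with means of 6.54 and 5.47, and the 3 miR-122b hairpins had no read.

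**Figure D2:**
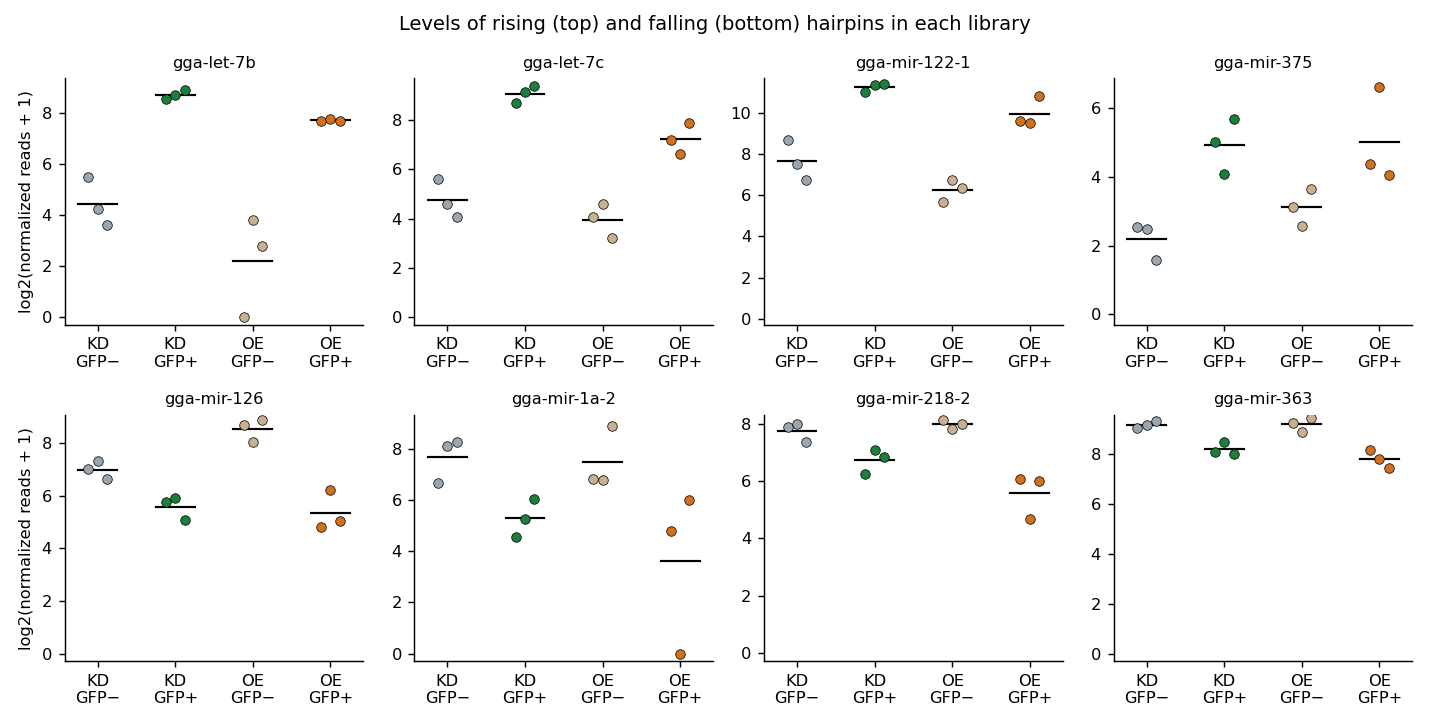
Level of 4 rising hairpins (top row) and 4 falling hairpins (bottom row) in each library, as log2(normalized reads + 1), by arm and GFP status; points are libraries and bars the group means. In all 8 panels the GFP+ libraries lie wholly on one side of the GFP− libraries in each arm, and gga-mir-1a-2 has 1 OE GFP+ library at 0.

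Summed over all their hairpins, let-7 and miR-122 took 13.3%, 18.7% and 15.97% of hairpin values in the KD GFP+ libraries and 2.55%, 1.45% and 0.9997% in the KD GFP− libraries. The OE GFP+ libraries were at 10.7%, 6.66% and 13.4% and the OE GFP− libraries at 0.689%, 1.34% and 0.810%. The lowest GFP+ library was thus above the highest GFP− library. Shares of one library sum to a fixed total, so the miR-302/miR-367 family was also set against a total without let-7 and miR-122. The falling hairpins outside that family were not set against such a total. Measured over the values other than let-7 and miR-122, a denominator chosen after the values were seen, the miR-302/miR-367 share was 44.2% ± 5.90 (SD, n = 3) in KD GFP+ cells and 45.5% ± 4.02 in KD GFP− cells. It was 22.2% ± 5.90 and 29.6% ± 11.1 in the OE arm, and lower in GFP+ cells in 5 of 6 pairs.

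The recovered reads are given beside these sums, and the part of depth in them was not tested. The 11 rising let-7 and miR-122 hairpins held 6478, 15147 and 12667 reads in the KD GFP+ libraries and 8168, 3933 and 4245 in the deeper KD GFP− libraries. The OE libraries had 406, 86 and 240 reads of them in GFP+ cells and 51, 695 and 2199 in GFP− cells. OE GFP− replicate 1, with 7546 reads in all, is the GFP− library nearest in depth to the OE GFP+ libraries. Its summed level for these 11 hairpins was 199.3 normalized reads, the lowest of the 12 libraries, against 2714, 2096 and 3806 in the OE GFP+ libraries. That comparison rests on 1 library and was made after the values were seen. The same library was among the GFP− libraries of the fit that called these 11 hairpins. A low sum in it was therefore favoured beforehand, and the comparison cannot show what depth contributed.

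The other 9 rises had a sum in that library level with the lowest OE GFP+ library. They were gga-mir-1692, gga-mir-12249, gga-mir-1732-1, gga-mir-1641, gga-mir-1601, gga-mir-1790, gga-mir-1565, gga-mir-375 and gga-mir-125b-2, a copy of the lin-4 relative miR-125b. Their means over the 12 libraries were 13.5 to 42.8 normalized reads, against 53.4 to 987 for the 11 let-7 and miR-122 rises. Summed, the 9 were at 194.9, 179.8 and 242 in KD GFP+ cells and at 28.01, 24.9 and 17.8 in KD GFP− cells. In the OE arm the sum was 348, 731 and 444 in GFP+ cells and 348, 45.1 and 42.7 in GFP− cells. OE GFP− replicate 1 thus stood with the GFP+ libraries. It was the highest OE GFP− library for 7 of these 9 hairpins, and for 6 of them it reached the lowest OE GFP+ library, a comparison made after the values were seen. Both counts were 0 of 11 for the let-7 and miR-122 rises. Neither was made over all tested hairpins, so no usual share can be set beside them. That library also took part in the fit that called all these rises. Whether the 9 rises, or the 11 let-7 and miR-122 rises, would remain at equal depth was not tested.

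**Figure D3:**
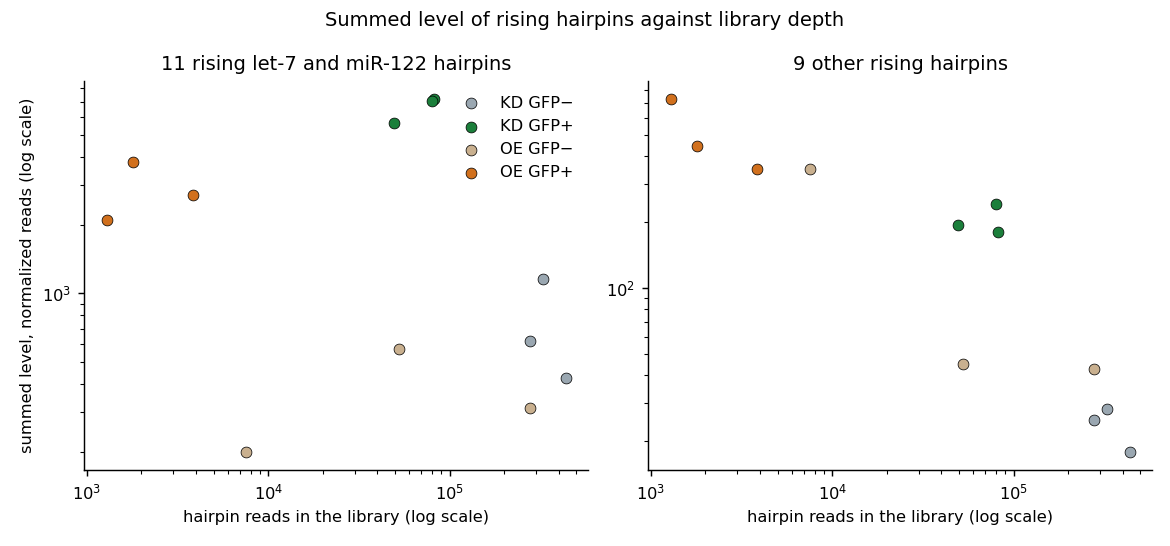
Summed level (normalized reads, log scale) of the 11 rising let-7 and miR-122 hairpins (left) and of the 9 other rising hairpins (right) against the number of hairpin reads in each library (log scale), coloured by arm and GFP status. On the left the 6 GFP+ libraries lie above the 6 GFP− libraries, and within each arm every GFP− library is deeper than every GFP+ library. On the right the OE GFP− library with 7546 reads lies at 348, the level of the lowest OE GFP+ library.

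Among these 9, gga-mir-12249 was at 14.7, 7.13 and 8.36 normalized reads in KD GFP+ cells and at 0.569, 0.63 and 0.599 in KD GFP− cells. It was at 26.7, 24.4 and 111 in OE GFP+ cells and at 3.91, 4.91 and 0.572 in OE GFP− cells. The groups did not overlap in either arm, and gga-mir-12249 rose by 3.16 on the log2 scale (SE 0.56, limma adjusted p = 0.00101). Its OE GFP+ values rest on 4, 1 and 7 reads. gga-mir-1692 had the larger difference, 3.44 (SE 0.80, limma adjusted p = 0.0068), but its OE GFP− libraries were at 31.3, 0 and 0.143 and overlapped the OE GFP+ libraries at 13.4, 48.7 and 47.6. gga-mir-125b-2 rose by 1.73 (limma adjusted p = 0.029) and was called in 4 of the 12 fits that leave out a library. gga-mir-1641 was not called in edgeR (edgeR adjusted p = 0.0574), and gga-mir-1565 was not called when same-numbered libraries were treated as pairs (limma adjusted p = 0.0857). The filter used the mean of all 12 libraries. Both GFP− group means of gga-mir-12249, gga-mir-1601, gga-mir-1565 and gga-mir-375 were below 10, so these passed it through their GFP+ values. So did gga-mir-1692, with GFP− group means of 1.69 (KD) and 10.5 (OE). The p-values of these hairpins come from the values that let them be tested.

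Of the 39 calls, 22 were also made by edgeR, by DESeq2, after TMM scaling, with same-numbered libraries as pairs and in each of the 12 fits without a library. Of these 22, 17 were rises, all but gga-mir-125b-2, gga-mir-1641 and gga-mir-1565, and 5 were falls. Among the 17 are gga-mir-12249, gga-mir-1601, gga-mir-1692 and gga-mir-375, which passed the filter through their GFP+ values. All these fits used the same filter over the 12 libraries, so they cannot check that selection. The 5 falls were gga-mir-126, gga-mir-222a, both miR-218 copies and gga-mir-363. gga-mir-126, which in mammals lies within an intron of the endothelial gene EGFL7, was at 53.7, 58.5 and 32.9 normalized reads in KD GFP+ cells and at 129, 159 and 98.3 in KD GFP− cells. In the OE arm it was at 26.7, 73.1 and 31.7 in GFP+ cells and at 410.2, 265 and 464 in GFP− cells. GFP+ libraries lay below GFP− libraries in each arm, and the log2 difference was -2.30 (SE 0.39, limma adjusted p = 0.000822), which is -1.84 relative to the median of all tested hairpins. Of the 6 blood and endothelium hairpins, gga-mir-126 alone was tested. Together they summed to 33.4 to 97.5 normalized reads in GFP+ libraries and 107 to 471 in GFP− libraries, a sum in which gga-mir-126 weighs most. The other 5, which include the red-cell microRNA miR-451, went the other way in the KD arm. They summed to 39.9, 26.2 and 23.98 in KD GFP+ cells and to 14.4, 8.82 and 8.29 in KD GFP− cells, with no test since all were under the filter. The OE groups overlapped, at 6.68, 24.4 and 47.6 in GFP+ cells, from 1, 1 and 3 reads, and at 7.81, 49.96 and 7.29 in GFP− cells, and gga-mir-155 had no read.

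gga-mir-218-2, whose vertebrate relatives lie within introns of SLIT genes, was at 76.2, 134 and 115 normalized reads in KD GFP+ cells and at 236, 254 and 163 in KD GFP− cells. The OE libraries held 66.8, 24.4 and 63.4 in GFP+ cells and 281, 224 and 257 in GFP− cells. The GFP+ libraries were the lower ones in both arms, with a log2 difference of -1.71 (SE 0.34, limma adjusted p = 0.00278). The copy gga-mir-218-1, with which it may share reads, also fell, at -1.57 (limma adjusted p = 0.00475). These were the only falls among the 13 tested members of the neural list, none of which rose, a share near the 14.4% of all tested hairpins that fell, and its median was -0.10 against -0.46. gga-mir-128-2, a copy of the neuronal microRNA miR-128, was not called and had a log2 difference of 0.21 with a 95% interval of -0.25 to 0.67.

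gga-mir-222a, a partner of miR-221 in one cluster, was at 65.8, 118 and 58.0 normalized reads in KD GFP+ cells and 149.7, 329 and 183 in KD GFP− cells. Its OE levels were 26.7, 97.5 and 63.4 in GFP+ cells and 184, 188 and 337 in GFP− cells. No GFP+ library reached a GFP− library of its arm, and gga-mir-222a fell by 1.72 on the log2 scale (SE 0.36, limma adjusted p = 0.00339). Its neighbour gga-mir-221 had a log2 difference of -1.94 with more spread and was not called (limma adjusted p = 0.0854).

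gga-mir-363 shares its seed with miR-92 and lies in a run of 6 tested hairpins with gga-mir-92-2 and gga-mir-106, by the order of genes in RefSeq (assembly GRCg7b). It was at 274, 356 and 255 normalized reads in KD GFP+ cells and 521, 569.5 and 643 in KD GFP− cells. OE GFP+ cells had 287, 219.4 and 174, and OE GFP− cells 609.5, 465 and 702. The libraries of the 4 groups kept a clear gap by GFP in each arm, and the log2 difference of -1.18 had the smallest p of all falls (SE 0.19, limma adjusted p = 0.000553). gga-mir-92-2, the most abundant hairpin of the table, had a log2 difference of -0.21 with a 95% interval of -0.51 to 0.09. For gga-mir-92-1 the difference was -0.04, with an interval of -0.33 to 0.25. Of the 6 hairpins in that run, gga-mir-363 and gga-mir-106 fell, and the other 4 had log2 differences from -1.71 to -0.21.

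The largest falls by size were in miR-1a, the muscle microRNA. gga-mir-1a-2 was at 22.5, 37.6 and 64.7 normalized reads in KD GFP+ cells and at 100.4, 277 and 308 in KD GFP− cells. In the OE arm it was at 26.7, 0 and 63.4 in GFP+ cells and at 113, 109.8 and 466 in GFP− cells. GFP+ libraries were lower in both arms without overlap, and 3 reads in the OE GFP+ library at 0 are worth 73.1 normalized reads. The log2 difference was -3.15 (SE 0.88, limma adjusted p = 0.0211), and without OE GFP− replicate 3 the limma adjusted p was 0.0551. The second copy gave -3.09 (limma adjusted p = 0.0283, and 0.0697 without OE GFP− replicate 3). Both copies were called in edgeR and with same-numbered libraries as pairs, but they may share reads and are not 2 separate results. The 10 muscle and cardiac hairpins summed to 24.4 to 190.3 normalized reads in GFP+ libraries and to 249.9 to 1067 in GFP− libraries, and that difference lies in the 2 miR-1a copies. The other 8 summed to 22.5, 37.1 and 33.5 in KD GFP+ cells and to 30.1, 37.96 and 32.5 in KD GFP− cells, and the groups overlapped in the OE arm too. gga-mir-206, the third tested member, was not called, with log2 differences of 0.91 in the KD arm and -2.35 in the OE arm.

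The remaining 12 falls were less firmly placed. Without OE GFP− replicate 3, 5 hairpins fell in place of 19, without KD GFP− replicate 2 the number was 11, and without OE GFP− replicate 1 it was 12. In 7 of the 19 falls the log2 difference was within 0.5 of the median of all tested hairpins, and gga-mir-30d, at -0.48, was at the median. These 7 were gga-mir-26a, gga-mir-26a-2, gga-mir-30d, gga-mir-30e, gga-mir-106, gga-mir-16c and gga-mir-146c. None of them was called in edgeR, and all were called by DESeq2 (DESeq2 adjusted p from 0.00163 to 0.0268). DESeq2 called 18 of the 19 falls. gga-mir-20a of the miR-17 family had a log2 difference of -2.21 (limma adjusted p = 0.0342), gga-mir-24 one of -1.21 (limma adjusted p = 0.0235), and both were also called in edgeR. The OE GFP+ values of gga-mir-20a rest on 2, 0 and 2 reads, and its edgeR log2 difference was -1.49. In the 12 fits that leave out a library, gga-mir-20a was called in 6 and gga-mir-24 in 10. gga-mir-103-1 had a difference of -1.11 (limma adjusted p = 0.029, edgeR adjusted p = 0.0526). The other copy, gga-mir-103-2, had a difference of -1.84 and was not called (limma adjusted p = 0.168). gga-mir-130a had one of -0.99 (limma adjusted p = 0.029) and was not called with same-numbered libraries as pairs (limma adjusted p = 0.0577). Neither were gga-mir-16c (limma adjusted p = 0.128) and gga-mir-146c (limma adjusted p = 0.0597). The more abundant relatives gga-mir-16-1 and gga-mir-16-2 were not called by the unpaired fit, at -0.28 and 0.09 (limma adjusted p = 0.574 and 0.845). Of the 9 tested hairpins related to miR-17 (miR-17, miR-106, miR-20, miR-19 and miR-18), 2 fell, where 14.4% of all tested hairpins did, and the median was -0.87 against -0.46. The other fall of the 12, gga-mir-367, is described with its family.

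**Figure D4:**
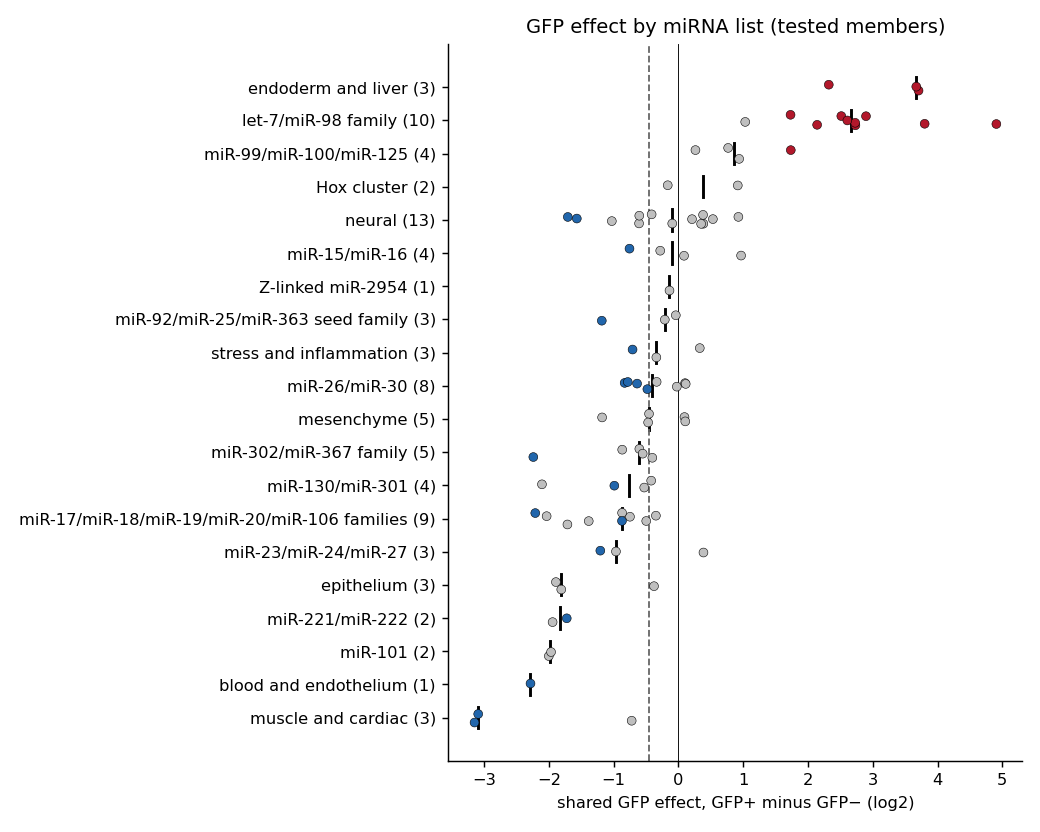
GFP+ minus GFP− difference (log2, both arms together) of the tested members of each microRNA list, with the number tested in parentheses. Red points are rises, blue points falls and grey points hairpins not called; short bars are list medians and the dashed line is the median of all tested hairpins, -0.46. The medians of the let-7 list (2.67) and of the endoderm and liver list (3.67) lie highest, and that of the muscle and cardiac list (-3.09) lowest. The endoderm and liver median is the value of gga-mir-122-1.

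Within the miR-302/miR-367 family, miR-302a, miR-302b and miR-302d were lower in the GFP+ library of every pair, and none of them was called by the unpaired fit. gga-mir-302b, the most abundant of them, was at 6152, 4402 and 6112 normalized reads in KD GFP+ cells and at 8556, 6429.6 and 7328 in KD GFP− cells. The OE libraries held 1631, 3388 and 1824 in GFP+ cells and 2239, 6722 and 3389.9 in GFP− cells. The KD groups did not overlap and the OE groups did, yet each GFP+ library lay below the GFP− library of its number. The log2 difference of gga-mir-302b was -0.60 (SE 0.26, limma adjusted p = 0.102, and 0.00272 with same-numbered libraries as pairs). It was also called without OE GFP+ replicate 2 (limma adjusted p = 0.0491).

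gga-mir-302a was at 4843, 2802 and 4845 normalized reads in KD GFP+ cells and at 5540.0, 4832 and 5231 in KD GFP− cells. In OE cells its levels were 715, 1804 and 904 with GFP and 1551, 4584 and 2855 without. Its groups overlapped in both arms, and it was lower in 6 of 6 pairs. gga-mir-302a had a log2 difference of -0.87 (SE 0.32, limma adjusted p = 0.0555, and 0.00774 in pairs). It lay close to the threshold, and was called by DESeq2 (adjusted p = 0.0268), with a pseudocount of 10 (limma adjusted p = 0.0412) or 25 (limma adjusted p = 0.0384), with a mean of at least 100 (limma adjusted p = 0.0271), and without OE GFP+ replicate 2 (limma adjusted p = 0.0340) or OE GFP− replicate 1 (limma adjusted p = 0.0474). It was not called by edgeR (adjusted p = 0.112) or after TMM scaling (limma adjusted p = 0.115). For gga-mir-302d, also lower in 6 of 6 pairs, it was -0.55 (SE 0.25, limma adjusted p = 0.111, and 0.00584 in pairs). Each of these values lies within 0.5 of the median of -0.46 for all tested hairpins. gga-mir-302c had a difference of -0.40 (limma adjusted p = 0.32) and was lower in 4 of 6 pairs. gga-mir-1811, a hairpin of the same cluster, had one of -0.03 (limma adjusted p = 0.94), with a sign that changed with scaling.

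gga-mir-367, the family member with another seed, was called as a fall, but in the OE arm alone the GFP+ libraries held no read. It was at 35.5, 15.2 and 26.8 normalized reads in KD GFP+ cells and at 27.4, 20.6 and 37.8 in KD GFP− cells, which overlapped. In the OE arm it was at 0 in all 3 GFP+ libraries and at 27.3, 17.2 and 13.9 in GFP− cells. Equal levels would have given 4.94 reads in the OE GFP+ libraries together, and a floor of 3 reads over that group puts gga-mir-367 at least 1.65-fold lower there. The fitted log2 difference was -2.24 (limma adjusted p = 0.0336). It was not called in edgeR (edgeR adjusted p = 0.409) or with same-numbered libraries as pairs (limma adjusted p = 0.0704).

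**Figure D5:**
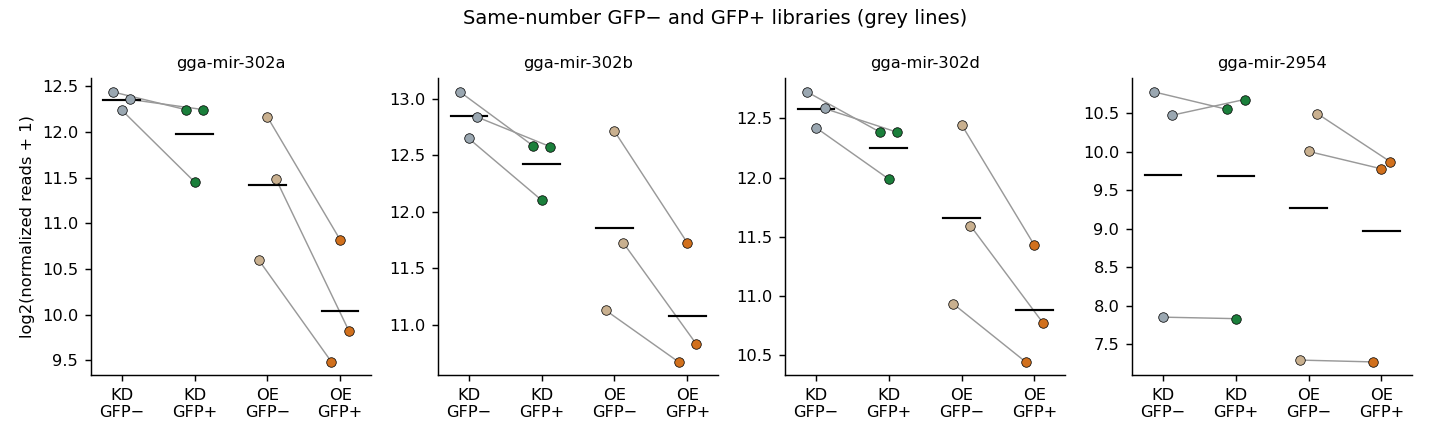
Level, as log2(normalized reads + 1), of 3 miR-302 hairpins and of Z-linked gga-mir-2954 in each library, with grey lines joining the GFP− and GFP+ library of the same number and bars for group means; the vertical axes do not start at 0. The miR-302 lines all fall towards GFP+, and the gga-mir-2954 lines are nearly level although the highest library is 11.4-fold above the lowest.

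The pairs also carried information of their own. gga-mir-2954, a Z-linked microRNA that is higher in male than in female birds, was at 1499, 227 and 1638 normalized reads in KD GFP+ cells and at 1753, 230.4 and 1421 in KD GFP− cells. Its OE levels were 154, 877 and 936 in GFP+ cells and 156, 1026 and 1442 in GFP− cells. Within pairs the log2 difference was between -0.62 and 0.20, although the highest library was 11.4-fold above the lowest. The GFP effect was -0.15 (SE 0.75, limma adjusted p = 0.89).

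Whether the GFP effect differed between the arms was tested as an interaction over the same hairpins. None of the tested hairpins was called (0.0%) by limma, and none by edgeR or DESeq2, while 9 had an unadjusted p under 0.05 by limma. The smallest adjusted p was 0.0558 (limma), for gga-mir-367, and the count was 6 without OE GFP+ replicate 1 and 1 without OE GFP+ replicate 2. In the KD arm alone 25 hairpins rose (18.9%) and 14 fell (10.6%), and in the shallower OE arm 6 rose (4.55%) and 4 fell (3.03%). The arms share no library, but the filter used the mean of all 12 libraries, so values of the OE arm helped decide which hairpins were tested. Of the 25 KD rises, 21 had a log2 difference above 0 in the OE arm, where 32.6% of all tested hairpins did. The OE median was exceeded by 24 of the KD rises. Both counts include gga-mir-1601, gga-mir-1565 and gga-mir-12249, whose highest group mean was that of the OE GFP+ libraries. These hairpins passed the filter only through their OE GFP+ values. A rise in the OE arm was therefore favoured beforehand for them, and their signs are no independent agreement between the arms. All 14 KD falls were below 0 in the OE arm, where 67.4% of all hairpins were, and 13 of them were below the OE median.

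Separation of the libraries was also read without a fit, on the same libraries and tested hairpins, so it is no independent check of the calls. In both arms the GFP+ libraries lay wholly above the GFP− libraries for 14 hairpins (10.6%), all called as rises, and wholly below for 18 (13.6%), of which 13 were called as falls. The 14 were the 9 let-7 rises, both miR-122 copies, gga-mir-375, gga-mir-12249 and gga-mir-1601. In the OE GFP+ libraries gga-mir-375 rests on 3, 4 and 1 reads, gga-mir-12249 on 4, 1 and 7 and gga-mir-1601 on 5, 3 and 2. Each of them passed the filter through its GFP+ values. The 5 hairpins that lay wholly below without a call were gga-mir-183, gga-mir-20b, gga-mir-301a and the 2 miR-101 copies, named after their values were seen. Their log2 differences were -2.11 to -1.71, and each had no read in at least 1 OE GFP+ library.

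Hairpins that lie next to each other in RefSeq were called together in some runs and not in others, where 29.5% of all tested hairpins were called. Both members rose in 3 pairs of let-7 neighbours: gga-let-7a-3 with gga-let-7b, gga-let-7a-1 with gga-let-7f, and gga-let-7k with gga-let-7j. Of the 10 tested let-7 hairpins 9 rose, so pairs of 2 rises would be common among them. gga-let-7c rose by 3.80, while its neighbour gga-mir-99a was at 0.77 and not called (limma adjusted p = 0.599). gga-let-7a-2 rose by 2.61, while its neighbour gga-mir-100 was at 0.26 and not called (limma adjusted p = 0.89). In the miR-17 to miR-92 run of 6 hairpins gga-mir-20a was the one call, although all 6 had log2 differences below 0, from -2.21 to -0.04. In the run of gga-mir-23b, gga-mir-27b and gga-mir-24 the one call was gga-mir-24, and the log2 differences were -0.96, 0.39 and -1.21.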

How the data were processed

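Small RNA libraries were made from GFP-sorted cells with the NEXTflex Small RNA-Seq Kit, per the labels' protocols. The submitters' processing notes name FastQC 0.11.5, cutadapt, STAR 2.7.0f and the build hg38. No chicken build, counting tool or normalization method is named in the sources used here. A chicken-aligned table of 2300 entries was deposited by the authors, whose values are a normalized signal in which all 1389 mature-arm entries were 0. In every library 100.0% of the non-zero deposited values came out whole when divided by 1 step, so whole reads were recovered with 1 factor per library. The tolerance was 0.001 reads for low counts and grew in proportion to the count for high ones. For KD GFP− replicate 3 that step is 0.0999, close to a round decimal step that rounding could also give, so the recovery is less certain there. The count tests include this library. Of 911 hairpin entries, 61 repeated a name, and the one with the highest mean was kept, which left 850. The human-aligned values were not analysed here.

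Hairpins with a mean of at least 10 (holding 98.7% of the summed means) were fitted with limma 3.58.1 (R 4.3.3; empirical Bayes with a trend) on log2(value + 1), two-sided, as arm plus GFP, and as 4 group means for the interaction. Changes of low hairpins can come out smaller or larger on this fold scale than in edgeR. gga-mir-1601 had a log2 difference of 2.70 by limma and 4.46 in edgeR. gga-mir-367, with no read in the OE GFP+ libraries, had -2.24 by limma and -0.62 in edgeR. Recovered reads were also tested with DESeq2 1.42.0 and with the quasi-likelihood test of edgeR 4.0.16. The alternatives were other pseudocounts, filters, scaling, library weights, single arms and each library left out. A limit of 3 reads was used where a group had none, and covers counting error only. No 2 libraries had identical reads.

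Same-numbered GFP+ and GFP− libraries deviated together from their group means (correlations over hairpins of 0.150, 0.379 and 0.144 in the KD arm, and 0.207, 0.324 and 0.111 in the OE arm). The numbers come from the sample titles and were therefore also used as pairs. KD GFP+ replicate 1 correlated more, at 0.192, with another number.

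Hairpins were named by rule: the miR-302/miR-367 cluster, up to 12 rises and 12 falls with the largest change, up to 4 members of each of the microRNA lists and the 5 most abundant. Further calls were named after their values were seen. The comparison, the lists and this rule were chosen with earlier results of these data known. Of the 850 names, 779 were found in RefSeq (assembly GRCg7b), which was used only for gene order. Sequences of the microRNAs were not used here.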

Additional observations from a re-analysis of the deposited data

Results flagged for a closer look

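gga-mir-99a, a relative of miR-100 that lies beside gga-let-7c, stood out because its pairs had opposite signs in the 2 arms, but its direction in the OE arm is not measurable at this depth. The GFP+ library was above the GFP− library of its number in all 3 KD pairs, by 1.89, 2.41 and 1.59 on the log2 scale, and below it in all 3 OE pairs, at -0.14, -0.86 and -0.29. The difference of the GFP effects, OE minus KD, was -2.39 and did not pass the interaction test (limma adjusted p = 0.818). Its OE GFP+ libraries were at 60.2, 0 and 15.9 normalized reads and its OE GFP− libraries at 66.4, 0.819 and 19.6, which overlap. The GFP+ values rest on 9, 0 and 1 reads, the GFP− value of replicate 2 rests on 1 read, and 3 reads are worth 20.1, 73.1 and 47.6 normalized reads in the 3 OE GFP+ libraries. Among the 71 hairpins named by rule it was the only one with such opposite signs.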

How the results depend on the processing

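Depth limits the OE arm, in which all 3 GFP+ libraries held at most 3856 hairpin reads. The count of 20 rises moved to 10 with a mean of at least 100 (45 hairpins tested) and to 6 in the OE arm only. The count of 19 falls moved to 11 in edgeR, 10 with TMM scaling, 29 with a pseudocount of 25, 9 with no filter (666 hairpins tested) and 4 in the OE arm only. Leaving out 1 library gave 17 to 20 rises, 5 to 23 falls and 0 to 6 interaction calls. A pseudocount of 0.1 gave 1 interaction call. With a replicate block, that is with same-numbered libraries as pairs, 19 rose (all among the 20) and 18 fell, of which 15 were among the 19; the 3 others were gga-mir-302a, gga-mir-302b and gga-mir-302d. The block made no interaction call and changed no other call than those given above. Over 26 settings, the 33 called hairpins named by rule changed sign in 0 cases. The cause of these changes was not tested.

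The log2 difference of 16 hairpins, none of them called, changed sign in 70 of 1810 combinations of hairpin and setting. In edgeR these were gga-mir-1811 at 0.064, gga-mir-92-1 at 0.065, gga-mir-128-1 at 0.17, gga-mir-206 at 0.45, gga-mir-10b at 0.45 and gga-mir-23b at 0.060. In DESeq2 these were gga-mir-1811 at 0.016, gga-mir-128-1 at 0.087, gga-mir-206 at 0.24, gga-mir-10b at 0.48 and gga-mir-23b at 0.020. With TMM scaling these were gga-mir-1811 at 0.052 and gga-mir-92-1 at 0.043. With library weights these were gga-mir-1811 at 0.12, gga-mir-128-1 at 0.0055, gga-mir-206 at 0.17, gga-mir-199-2 at -0.16, gga-mir-199-1 at -0.27, gga-mir-210a at -0.67 and gga-mir-16-2 at -0.065. In the KD arm only these were gga-mir-1811 at 0.16, gga-mir-206 at 0.91, gga-mir-199-2 at -0.13, gga-mir-199-1 at -0.37, gga-mir-10b at 0.12, gga-mir-210a at -0.996, gga-mir-16-2 at -0.035, gga-mir-16-1 at 0.070 and gga-mir-23b at 0.14. With a pseudocount of 25 these were gga-mir-206 at 0.011 and gga-mir-10b at 0.14. With a pseudocount of 10 it was gga-mir-10b at 0.077. With a pseudocount of 0.1 it was gga-mir-100 at -0.25. In the OE arm only these were gga-mir-100 at -0.974, gga-mir-125b-1 at -0.13, gga-mir-99a at -0.43 and gga-mir-27b at -0.14. Leaving out 1 library gave a range of -0.16 to 0.15 for gga-mir-1811, -0.12 to 0.019 for gga-mir-92-1, -0.30 to 0.15 for gga-mir-128-1, -0.19 to 0.29 for gga-mir-199-2, -0.21 to 0.27 for gga-mir-199-1, -1.05 to 0.77 for gga-mir-10b, -0.30 to 1.56 for gga-mir-100, -0.15 to 0.69 for gga-mir-210a, -0.16 to 0.20 for gga-mir-16-2, -1.52 to 0.14 for gga-mir-23b and -0.58 to 0.24 for gga-mir-2954.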

Other observations

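Over all tested hairpins 29.5% were called, so lists with 3 to 5 tested members would hold few calls at that share. Of the 5 tested mesenchyme hairpins none was called, with a median log2 difference of -0.45, close to the -0.46 of all tested hairpins. gga-mir-143, a microRNA of smooth muscle and mesenchyme, had the largest difference among them, -1.18 (limma adjusted p = 0.0527). None of the 3 tested epithelial hairpins was called, and their differences ran from -0.38 for gga-mir-200b to -1.89 for gga-mir-429, with the OE arm lower than the KD arm in each. gga-mir-21, often raised by stress, was not called, with a difference of -0.34 (95% interval -0.65 to -0.03, limma adjusted p = 0.0975). Both miR-101 copies were near -2.00 and -1.97 and uncalled.

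The hairpins miR-10a and miR-10b, which lie in Hox clusters, varied widely between libraries. gga-mir-10a was at 53.5, 609 and 159 normalized reads in OE GFP+ cells and at 11.7, 163 and 102 in OE GFP− cells. In the KD arm its 6 libraries were between 8.82 and 49.3. gga-mir-10b followed a like order in the OE arm, at 0, 292 and 15.9 in GFP+ cells and 3.91, 66.3 and 37.0 in GFP− cells. Replicate 2 was the highest in both kinds of OE cell for both hairpins, and neither was called for GFP.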
